A study of Homo sapiens with 6 samples.

Results

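KYSE-30-only promoter regions are stretches of open chromatin near transcription start sites (TSSs) with a called peak in 1 of the 2 KYSE-30 libraries, absent from the lists of the other cell lines. They were selected from the peak lists of 6 ATAC-seq libraries, in which the Tn5 transposase cuts accessible DNA and a peak marks a site with more cuts than its surroundings. All peaks that shared at least 1 bp were merged on hg19, which gave 23972 regions. A region became a member when it held a peak of exactly 1 KYSE-30 library, no HET-1A or KYSE-150 peak, and lay within 3 kb of a TSS of any annotated transcript. This left 3260 members, of which 3087 came from KYSE-30 library 6 and 173 from KYSE-30 library 4. The presence of called peaks thus chose the members, and their absence from the other lists is not a finding.

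KYSE-30 and KYSE-150 are esophageal squamous cell carcinoma (ESCC) lines, and HET-1A is a non-cancerous esophageal epithelial line. The carcinoma lines were grown in RPMI/F12 with 5% FBS and 1% antibiotic-antimycotic, whereas HET-1A was grown in BEBM with its additives, so that line and medium cannot be told apart. No treatment was given. Each group is 1 established line with 2 libraries (HET-1A 1 and 2, KYSE-30 4 and 6, KYSE-150 7 and 8), and the labels do not say whether the libraries of a line came from separate cultures.

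The lists differed greatly in length, which bears on every value below. HET-1A had 168 and 15979 peaks, KYSE-30 had 1255 and 11671, and KYSE-150 had 547 and 259. The lists give no read totals. The lowest local background of a library, in tags per 200 bp, follows its depth and was 2.36 in KYSE-30 library 4 and 1.49 in library 6, against 1.88 and 3.34 for HET-1A and 2.80 and 2.64 for KYSE-150. KYSE-30 library 6 thus had the longer KYSE-30 list and the lowest background of the 6. An exact permutation test of 2 libraries against 2 has 0.33 as its smallest two-sided p-value, so lines were not tested against each other, and values are given per library. Of 10 epithelial marker genes, 5 had a promoter peak in KYSE-30 library 6 (KRT8, EPCAM, GRHL2, ESRP1 and CLDN4) and 4 in HET-1A library 2 (KRT8, KRT18, EPCAM and CLDN4). None of the 10 had a peak in the other 4 libraries, which have the shorter lists. Among the markers of other cell types only COL3A1, of 7 fibroblast genes, had a promoter peak, in KYSE-30 library 6, and the 6 leukocyte and 4 endothelial genes had none in any library.

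A promoter is the stretch of DNA around a TSS where RNA polymerase II and the general transcription factors assemble. Many human promoters lie in CpG islands, GC-rich stretches with little loss of CpG dinucleotides, and are bound by factors such as SP/KLF proteins, NF-Y, ETS proteins and NRF1. Such promoters are often open in many cell types. Sites that flank promoters and distal enhancers tend to be more cell type-specific, and in epithelial cells many of them carry the motif of AP-1, the dimer of FOS and JUN family proteins that responds to growth factors and stress.

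The sequences of the leading members show what kind of DNA was called. From KYSE-30 library 6, the windows below surround the summits of 3 of the 10 members with the highest fold enrichment at a protein-coding gene. They are given on the plus strand of hg19, 5′ to 3′, up to 200 bp around the summit and without annotated UTR. Capitals mark matches to the motifs searched.
TMEM218, chr11:124981660-124981809: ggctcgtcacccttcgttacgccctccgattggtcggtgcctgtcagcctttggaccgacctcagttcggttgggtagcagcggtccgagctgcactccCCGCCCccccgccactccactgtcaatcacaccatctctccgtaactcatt
ZNF862, chr7:149535260-149535459: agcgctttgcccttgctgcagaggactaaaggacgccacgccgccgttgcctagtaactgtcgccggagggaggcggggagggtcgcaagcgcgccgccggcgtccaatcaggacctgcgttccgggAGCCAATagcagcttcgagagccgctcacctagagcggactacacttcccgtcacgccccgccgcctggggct
CEP128, chr14:81408086-81408285: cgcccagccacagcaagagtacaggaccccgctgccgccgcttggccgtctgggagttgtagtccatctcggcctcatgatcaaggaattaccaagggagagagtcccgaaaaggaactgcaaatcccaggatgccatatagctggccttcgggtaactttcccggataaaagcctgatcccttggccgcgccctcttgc

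All 3 are GC-rich windows upstream of a TSS. TMEM218, a membrane protein of the primary cilium, has its summit 235 bp upstream of the TSS, and the capitals mark an SP/KLF GC box (GGGCGG or its complement CCGCCC). For ZNF862, a zinc finger gene, the summit lies 104 bp upstream and the capitals mark an NF-Y box (AGCCAAT). CEP128 encodes a protein of the centriole; its summit lies 155 bp upstream of a TSS, in an intron of a longer transcript, and the window holds none of the motifs searched. For KYSE-30 library 4 the corresponding windows are shown so that both libraries can be compared.
ALG10, chr12:34175607-34175806: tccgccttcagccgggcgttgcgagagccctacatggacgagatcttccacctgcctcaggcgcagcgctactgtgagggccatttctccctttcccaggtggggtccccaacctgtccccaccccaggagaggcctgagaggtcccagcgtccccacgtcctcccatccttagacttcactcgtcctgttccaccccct
TMEM45A, chr3:100211216-100211415: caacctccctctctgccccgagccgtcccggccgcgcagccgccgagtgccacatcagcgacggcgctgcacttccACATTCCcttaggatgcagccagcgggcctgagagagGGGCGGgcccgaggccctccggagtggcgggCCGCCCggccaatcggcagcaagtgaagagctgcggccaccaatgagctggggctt
POLG2, chr17:62493173-62493306: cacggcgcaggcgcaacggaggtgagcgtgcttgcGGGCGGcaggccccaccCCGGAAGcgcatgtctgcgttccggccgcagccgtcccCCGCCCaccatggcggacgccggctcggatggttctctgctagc

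The ALG10 window lies 276 bp downstream of the TSS and holds no motif searched. At TMEM45A, a transmembrane protein gene, the summit lies 147 bp upstream and the capitals are a TEAD motif (ACATTCC) and 2 GC boxes. POLG2 encodes the accessory subunit of the mitochondrial DNA polymerase; its summit lies 150 bp upstream, and the window holds 2 GC boxes and an ETS motif (CCGGAAG). A second kind of member lies away from the TSS. The following 4 windows are those of highest fold enrichment in KYSE-30 library 6 among members at protein-coding genes, over 1 kb from any TSS, with the AP-1 core (TGACTCA or its complement TGAGTCA) and a summit outside annotated UTRs. The capitals mark the AP-1 core alone.
FBXW8, chr12:117354007-117354206: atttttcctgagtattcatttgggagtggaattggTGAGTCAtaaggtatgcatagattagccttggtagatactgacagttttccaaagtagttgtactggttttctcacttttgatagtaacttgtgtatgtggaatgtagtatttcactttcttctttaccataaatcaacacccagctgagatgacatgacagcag
ASB5, chr4:177191961-177192160: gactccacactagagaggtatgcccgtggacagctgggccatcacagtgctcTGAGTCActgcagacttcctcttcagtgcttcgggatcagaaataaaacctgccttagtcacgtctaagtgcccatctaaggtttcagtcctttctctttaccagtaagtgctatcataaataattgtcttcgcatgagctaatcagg
ALG5, chr13:37540018-37540217: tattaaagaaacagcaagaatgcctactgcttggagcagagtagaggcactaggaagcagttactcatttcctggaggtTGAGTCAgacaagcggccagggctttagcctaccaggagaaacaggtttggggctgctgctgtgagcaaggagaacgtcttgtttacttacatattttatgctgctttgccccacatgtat
MBP, chr18:74801102-74801301: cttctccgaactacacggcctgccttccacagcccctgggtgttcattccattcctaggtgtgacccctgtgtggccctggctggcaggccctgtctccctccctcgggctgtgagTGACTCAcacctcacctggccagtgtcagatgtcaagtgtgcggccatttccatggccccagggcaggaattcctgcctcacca

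All 4 summits lie in introns, of FBXW8 (a substrate receptor of cullin ubiquitin ligases), ASB5 (another ubiquitin ligase subunit), ALG5 (a glucosyltransferase of N-glycan synthesis) and MBP (myelin basic protein). Their fold enrichments were 10.2, 9.38, 9.06 and 8.46. Each window holds a single AP-1 core, and the summits lie 2391, 1688 and 1595 bp upstream (FBXW8, ASB5, MBP) or 2075 bp downstream (ALG5) of the nearest protein-coding TSS.

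Promoters were not an unusually large part of the KYSE-30-only regions. Of 7294 regions with a peak in 1 KYSE-30 library and no other line, 3260 were members, 44.7% (Wilson 95% interval 43.6 to 45.8). The share was 41% (36.4 to 45.7) for regions of library 4 and 44.9% (43.7 to 46.1) for those of library 6. It was 45.8% for regions with a peak in 1 HET-1A library only and 50.4% over all merged regions. Of the regions with peaks of both KYSE-30 libraries but of no other line, 62.6% were at promoters (109 of 174), and of those shared by KYSE-30 and HET-1A 69.9% were (3258 of 4663). These intervals cover counting error only, since neighbouring regions of 1 library are not replicates.

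The members were peaks of modest strength. Fold enrichment is the number of tags at the summit over the local background, with 1 added to each. In library 6 it ranged from 2.37 to 12.9 with a median of 5.23, and in library 4 from 1.96 to 6.32 with a median of 4.07. A median of 16 tags stood at the summit in library 6 (8 to 94) and of 17 in library 4 (12 to 69). For comparison, library 6 had a median fold enrichment of 6.40 at the 109 KYSE-30-only promoters called in both libraries and of 5.85 at promoters shared with HET-1A. The upper ends differed more, with the highest shared promoter peak at 30.0-fold in library 6 and 38.6-fold in library 4. The peak width was 200 bp, the shortest that was called, for 15.3% of members in library 6 and 32.4% in library 4.

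**Figure D1:**
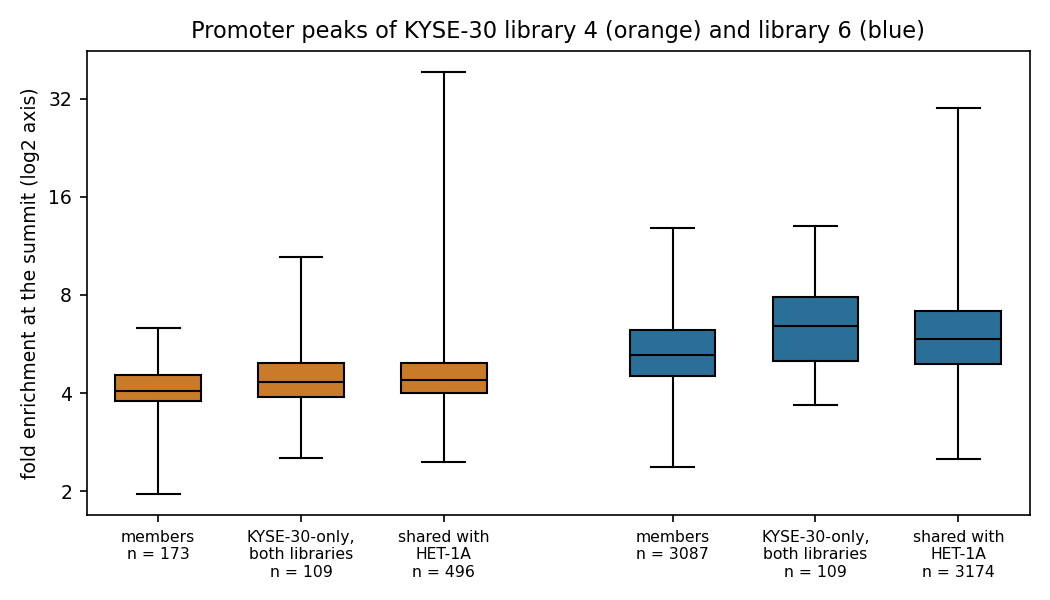
Fold enrichment (log2 axis) of promoter peaks in KYSE-30 library 4 and library 6, for members, KYSE-30-only promoters called in both libraries, and promoters shared with HET-1A; boxes span the quartiles with the median as a line, and whiskers reach the lowest and highest peak. Members have the lowest median in each library, 4.07 and 5.23.

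Whether a promoter peak of KYSE-30 was a member went with its strength. When the promoter peaks of library 6 were put in 5 groups of equal size by fold enrichment, members made up 62.6%, 53.6%, 49.1%, 42.3% and 33.2% from the weakest to the strongest group. The share that overlapped a HET-1A peak went from 36.3% in the weakest to 62.3% in the strongest, and the share that overlapped a peak of library 4 from 2.65% to 17.5%. In library 4 the member share went from 34% to 12.7% over the same 5 groups. Weak peaks were thus more often members in both libraries. Fold enrichment belongs to the peak call that chose the members, so these shares are a description.

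**Figure D2:**
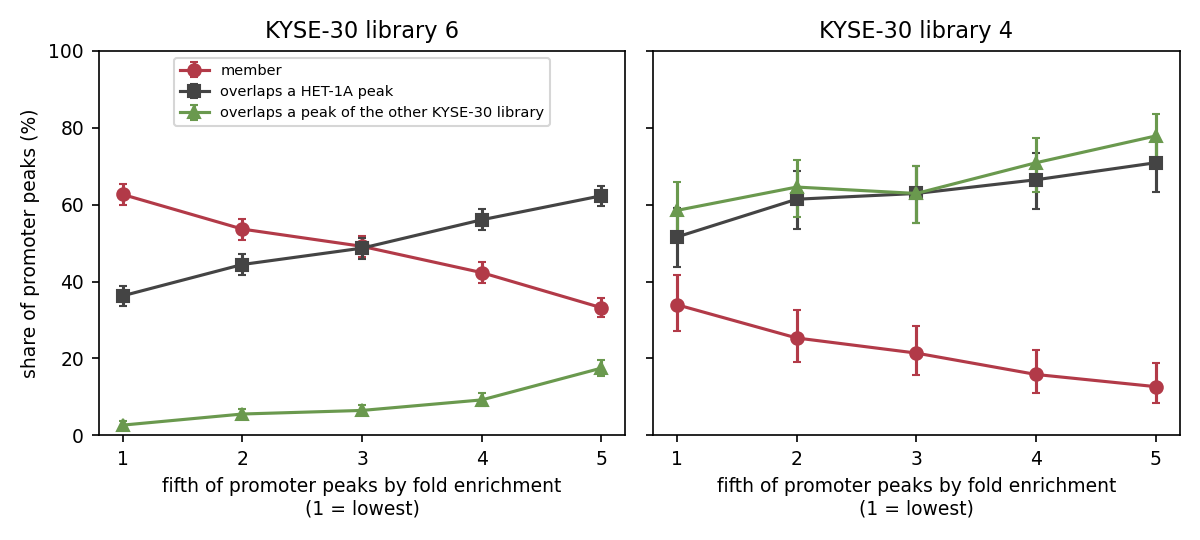
Share of promoter peaks (%) that were members, overlapped a HET-1A peak or overlapped a peak of the other KYSE-30 library, in 5 groups of rising fold enrichment, for library 6 (left) and library 4 (right); bars are Wilson 95% intervals. The member share goes from 62.6% to 33.2% in library 6 and from 34% to 12.7% in library 4.

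The weakest peak called differed between the libraries. Among peaks whose local background was less than 1.2 times the lowest of their library, its fold enrichment was 3.43 in KYSE-30 library 4 and 3.24 in library 6, 3.82 and 2.80 in the HET-1A libraries and 3.33 and 3.85 in those of KYSE-150. Of the 980 members of library 6 on such a background, 17 lay below the 3.85 of KYSE-150 library 8, 14 below the 3.82 of HET-1A library 1, 2 below the 3.43 of KYSE-30 library 4 and none below the 2.80 of HET-1A library 2. These are values of called peaks, and the part of the calling limit in membership was not tested. Fold enrichments from libraries of different background and signal are not on a common scale, and what the other libraries held at these positions was not measured by lists of called peaks.

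Some members lay close to the q-value limit of the peak call or to the 3 kb limit of the rule. The largest q-value was 0.0495 in library 6, at the small nucleolar RNA gene U3, and 0.0212 in library 4, at TRMT13, a tRNA methyltransferase gene, while 92.3% of members in library 6 and 64.2% in library 4 had a q-value under 0.001. The member farthest from a TSS was 2998 bp away in library 6 (ARHGAP26) and 2925 bp in library 4 (LINC02308). Just outside were regions at FNDC3B, 3005 bp away (library 6, 5.70-fold), and at FAM83E, 3022 bp away (library 4, 3.57-fold).

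The members of the 2 libraries lay at different places within promoters. In library 6, 53.8% of members covered a TSS (1660 of 3087, interval 52.0 to 55.5), whereas in library 4 only 15.6% did (27 of 173, interval 11.0 to 21.8). The median distance was 0 bp in library 6 and 678 bp in library 4. Members over 2 kb away made up 7.55% in library 6 and 22% in library 4. Promoters shared with HET-1A covered a TSS in 79.3% and KYSE-30-only promoters called in both libraries in 75.2%, while HET-1A-only promoters did so in 48%, so that members of library 6 stood nearer to the HET-1A-only promoters than to the shared ones. At protein-coding genes, each summit was placed against the TSS nearest to its region, or the one of lowest coordinate where the region covered several. By this measure 69.0% of the summits of library 6 lay upstream and 31.0% downstream, whereas in library 4 as many lay upstream as downstream (52 each). The side of a summit in a region over several TSSs depends on this choice. Its part in the contrast between the libraries was not tested.

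**Figure D3:**
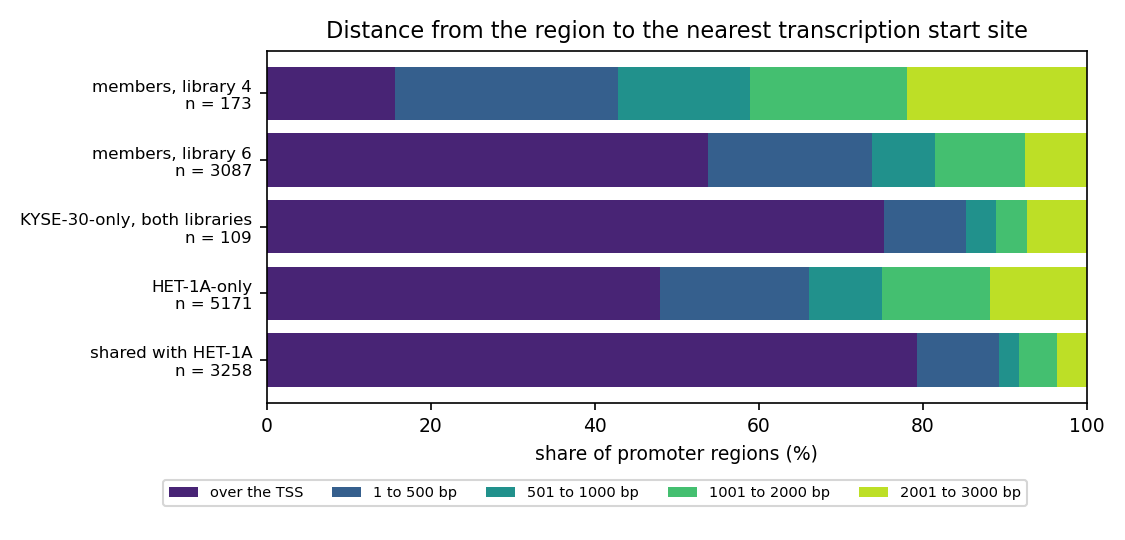
Share of promoter regions (%) by distance to the nearest TSS for members of library 4 and library 6, KYSE-30-only promoters of both libraries, HET-1A-only promoters and promoters shared with HET-1A; colours give 5 distance classes, from over the TSS to between 2 and 3 kb away. The TSS class takes 15.6% of library 4 members and 53.8% of library 6 members.

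The genes near the members also differed in kind. A protein-coding TSS lay within 3 kb of 78.1% of members in library 6 and 60.1% in library 4. Members near a long non-coding RNA but no protein-coding gene made up 15.6% and 20.2%. TSSs on both strands, as at a promoter that drives a pair of divergent genes, lay within 3 kb of 32% of members in library 6 and 17.9% in library 4, against 43.8% of promoters shared with HET-1A. At HET-1A-only promoters the 3 shares were 76.9%, 14.7% and 28.6%, nearer to those of library 6 members than to those of library 4. In library 4, 13.9% of summits carried a 32-bp sequence found more than once in the genome, against 3.24% in library 6 and 1.51% of the library 6 peaks at shared promoters.

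The distance from members to peaks of other lines is a description, since the rule leaves out any region that overlaps one. It also depends on the length of the other lists and was measured for members only. Of the library 6 members, 10.2% had a peak of HET-1A or KYSE-150 within 3 kb without overlapping it, and of the library 4 members 23.1%. A peak of the other KYSE-30 library lay within 3 kb of 1.49% of library 6 members and of 17.3% of library 4 members (30 of 173). Of those 30, 18 lay within 500 bp, so that both libraries had a peak there without overlap.

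Base composition of the members followed the distance from the TSS. In 200-bp windows around the summit, the median GC content was 59.5% in library 6 and 57.0% in library 4, against 63.0% at promoters shared with HET-1A and 46.5% at KYSE-30-only distal regions of library 6. A window was called CpG-rich when its GC content was at least 50% and its CpG count at least 0.6 of that expected from its C and G content. By this measure 52.3% of library 6 members were CpG-rich (interval 50.5 to 54.0) and 20.8% of library 4 members (15.4 to 27.5), compared with 74.2% of library 6 peaks at shared promoters and 68.2% of 200-bp windows at all protein-coding TSSs. Library 6 members over a TSS reached 76.4%, those 1 to 1000 bp away 35.9% and those over 1 kb away 6.49%. HET-1A-only promoters of HET-1A library 2 were CpG-rich in 49.7%, and in 80.5%, 33.4% and 7.43% over the same 3 distances. The share in library 6 members and its fall with distance were thus not particular to the members. In library 4 the share over the TSS was 37.0% (21.5 to 55.8, 27 members).

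Low GC went with membership. In the 5 groups of library 6 promoter peaks by GC content, members made up 68.6% of the group of lowest GC (up to 52%) and between 39.4% and 47.5% of the other groups. The median fold enrichment of the groups stayed between 5.30 and 5.73. In library 4 the member share went from 41.5% in the group of lowest GC to 8.86% in that of highest GC. Whether base composition was captured unequally by the libraries was not tested.

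The AP-1 core showed the opposite course to CpG content in library 6. It was found in 7.11% of members over a TSS (interval 5.97 to 8.45), in 19.4% of those 1 to 1000 bp away (16.9 to 22.2) and in 33.0% of those over 1 kb away (29.2 to 36.9). Distal KYSE-30-only regions of the same library had it in 39.1% and windows at all protein-coding TSSs in 2.11%. HET-1A-only promoters of HET-1A library 2 had it in 5.68%, 17.8% and 24.6% over the same 3 distances, and promoters shared with HET-1A, in library 6, in 4.58%, 22.7% and 49.0%. Over the TSS the interval at shared promoters (3.83 to 5.46) lay below that at members, from 1 to 1000 bp the intervals overlap, and over 1 kb away that at shared promoters (43.0 to 55.1) lay above that at members. In library 4 it was found in 7.41%, 5.33% and 8.45% of 27, 75 and 71 members. Away from the TSS the intervals of the 2 libraries do not overlap, that of library 4 being 2.09 to 12.9 up to 1 kb and 3.93 to 17.2 beyond it.

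**Figure D4:**
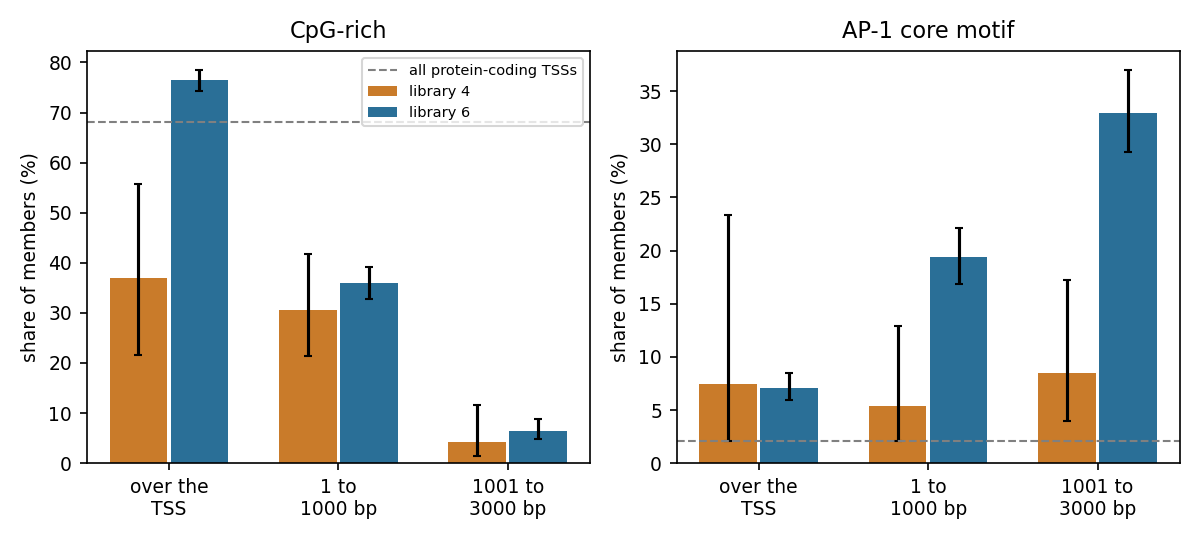
Share of members (%) that were CpG-rich (left) or held the AP-1 core motif (right) in the 200-bp summit window, by distance to the TSS, in library 4 and library 6; bars are Wilson 95% intervals and dashed lines give all protein-coding TSSs (68.2% and 2.11%). In library 6 the AP-1 share goes from 7.11% to 33.0% with distance, and that of CpG-rich windows from 76.4% to 6.49%.

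Motifs of common promoter factors were rarer at members than at shared promoters. The GC box was found in 36.1% of library 6 members and in 54.9% of library 6 peaks at promoters shared with HET-1A. NF-Y, which binds the CCAAT box, had its motif in 5.86% against 14.2%, the ETS motif was found in 10.3% against 15.3%, and the NRF1 motif (GCATGCGC), of a factor of nuclear genes for mitochondrial proteins, in 2.36% against 4.85%. HET-1A-only promoters of HET-1A library 2 also lay below the shared ones, with the GC box in 42.8%, NF-Y in 5.97%, ETS in 10.1% and NRF1 in 3.65%. The lower shares were thus not particular to the members. Shared promoters also covered a TSS more often, 79.3% against 53.8% of library 6 members. Over the TSS alone, library 6 members had the GC box in 50.3%, close to the 53.6% of all protein-coding TSSs, the ETS motif in 16.7% against 11.3%, and the NF-Y motif in 7.95% against 5.82%. Library 4 members had the GC box in 16.8%, the ETS motif in 1.16% (2 of 173) and the NF-Y motif in 1.73%. TEAD (ACATTCC) and RUNX (AACCACA) motifs, of factors that act at enhancers, were found in 3.6% and 3.73% of library 6 members, and in 7.37% and 6.32% of those over 1 kb from the TSS. HET-1A-only promoters had them in 2.82% and 2.51%, and in 4.38% and 3.91% over 1 kb away. Shared promoters over 1 kb away had them in 6.61% and 3.50%, and distal KYSE-30-only regions of library 6 in 7.93% and 7.48%. The higher shares away from the TSS were thus not particular to the members. A match is a run of letters on either strand and no evidence of binding.

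At the level of genes, 2635 of 20162 protein-coding genes, 13.1%, had at least 1 member within 3 kb of a TSS. Library 6 alone gave 2538 genes (12.6%) and library 4 gave 112 (0.556%), with 15 genes in common. These 15 of the 112 library 4 genes are near the 12.6% of all protein-coding genes with a library 6 member. Of the 2635 genes, 607 (23%) also had a promoter peak of HET-1A or KYSE-150 at another position, so that 2028 genes had promoter peaks in KYSE-30 but in no other line. Most genes had a single member: 2366 had 1, 244 had 2 and 25 had 3 or more.

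The 10 strongest members of library 6 at protein-coding genes all covered a TSS, and none held the AP-1 core. CENPK, a kinetochore subunit that links centromeric chromatin to the spindle, led with a fold enrichment of 12.1 (30 tags on a background of 1.56). EPS8, an actin regulator and substrate of receptor tyrosine kinases, had 11.9 (46 tags). POT1, which binds the single-stranded end of telomeres, had 11.9 (33 tags). They were followed by SCLT1 (11.7), a protein of the distal appendages of centrioles, TMEM218 (11.7), ZNF862 (11.2) and CEP128 (11.1). C11orf65 (10.9), CRYZ (10.8), a quinone reductase, and MTPN (10.7), an ankyrin repeat protein, complete the 10. Each member is named after a single gene, although a neighbour can share it. The members at CENPK, EPS8, SCLT1 and CRYZ also lay within 3 kb of a TSS of PPWD1, STRAP, C4orf33 and TYW3, in that order. Without a protein-coding TSS within 3 kb, 4 members of library 6 were as strong as these, at SNORD3B-2 (12.9), RPL26P31 (11.3), ENSG00000287138 (11.0) and CLDN10-AS1 (10.8). Of these 4, 1 covered a TSS and 3 held the AP-1 core. The member of highest fold enrichment of all lay 389 bp from the small nucleolar RNA gene SNORD3B-2 and had a summit sequence found 4 times in the genome.

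Library 4 gave another set. ALG10, which adds the last glucose to the lipid-linked N-glycan precursor, led with 6.32 (23 tags on a background of 2.80), followed by TMEM45A (6.24), FRG2 (6.24), whose summit sequence occurs 3 times in the genome, and POLG2 (6.22). IL26, a cytokine gene, had 5.94, C10orf90 5.37, GMEB2, a DNA-binding protein of glucocorticoid-responsive genes, 5.28, SLC35A1, the CMP-sialic acid transporter, 5.08, and NOPCHAP1 and the photoreceptor nuclear receptor NR2E3 5.05 each. Of these 10 members only that at POLG2 covered a protein-coding TSS. NR2E3 was the only member of the 10 with the AP-1 core.

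Gene groups were counted by the number of their genes with a member, beside the 13.1% of all protein-coding genes. The share was above 13.1% in 10 of 17 lists and below it in 7. It was highest for the proteasome, with 12 of 49 genes (24.5%, interval 14.6 to 38.1), and for DNA repair, with 16 of 69 (23.2%, 14.8 to 34.4). Translation initiation and tRNA synthetases followed with 12 of 59 (20.3%), mitosis and kinetochore with 10 of 51 (19.6%), interferon and innate immune signaling with 12 of 66 (18.2%) and chromatin regulators with 16 of 92 (17.4%). It was lowest for olfactory and taste receptors, with 1 of 64 (1.56%), and for p53 pathway and apoptosis, with 2 of 59 (3.39%). The intervals of the other 13 lists include 13.1%, and no list was tested, because the lists were written with earlier results known. For comparison, shared promoter regions lay at 17.3% of all protein-coding genes, and at 38.8% of proteasome, 37.7% of DNA repair, 3.08% of neuronal and none of the olfactory and taste receptor genes. HET-1A-only promoter regions lay at 20.3% of all protein-coding genes, and at 30.6% of proteasome, 31.9% of DNA repair, 35.6% of p53 and 6.25% of olfactory and taste receptor genes.

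**Figure D5:**
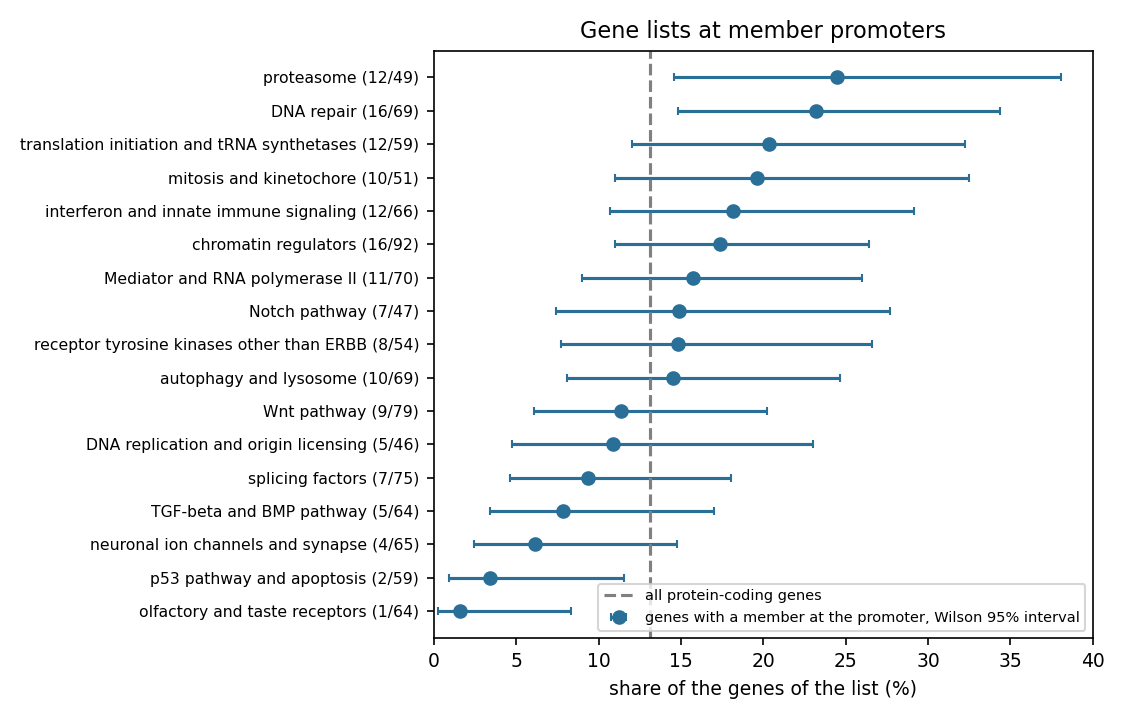
Share of the genes of each list (%) with a member within 3 kb of a TSS, with Wilson 95% intervals; the numbers in parentheses are genes with a member and genes found, and the dashed line is the 13.1% of all protein-coding genes. The proteasome (24.5%) and DNA repair (23.2%) lists lie highest, and the olfactory and taste receptor list (1.56%) lowest.

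All 16 DNA repair members came from library 6 and covered a TSS, with a median fold enrichment of 5.52 against 5.23 over all members of that library. They included 3 genes of the double-strand break sensor: MRE11 (9.13) and NBN (8.04), subunits of the MRN complex that binds broken ends, and ATM (7.77), the kinase it activates. XPA (5.90), a damage verification factor of nucleotide excision repair, came next. The Fanconi anemia genes FANCM, FANCC, FANCL, FANCI and FANCB, which act on interstrand crosslinks, had values from 4.42 to 5.82. In the MRE11 promoter 22 tags stood on a background of 1.52, and in that of ATM 22 on 1.96. None of the 16 windows held the AP-1 core.

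Members at mitosis genes were those with the highest median fold enrichment of the 17 lists, 6.90. After CENPK (12.1) came SMC2 (10.2), a condensin subunit, SMC3 (9.94), a cohesin subunit, and MAD2L1 (8.65), which holds back anaphase until all chromosomes are attached. The DNA replication list had 5 of 46 genes (10.9%), below the 13.1% of all genes. These were RFC3 (7.86) and RFC4 (4.60) of the clamp loader, MCM10 (7.58), an initiation factor, ORC5 (6.64) of the origin recognition complex, and DBF4 (6.16), the activator of the CDC7 kinase.

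Among proteasome genes, PSMD10 (7.88), an assembly chaperone, PSMD14 (6.83), the deubiquitinase of the regulatory particle, PSMB9 (6.34), a catalytic subunit of the immunoproteasome, and PSMA5 (6.04), a subunit of the core, had the strongest members. PSMD10 shares its member with the divergent neighbour ATG4A, an autophagy protease. PSMB9 and PSMB8, both of the immunoproteasome, share a member (5.71) as well. Of the 13 proteasome members 11 covered a TSS.

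In the translation list EIF3E (10.6) and EIF3M (9.24), subunits of initiation factor eIF3, came ahead of the cysteinyl-tRNA synthetase gene CARS1 (6.89) and the cap-binding protein gene EIF4E (6.83). The EIF4E member lay 772 bp from the TSS and held the AP-1 core. Library 4 contributed 2 members to this list, at EIF3G (4.64) and EIF2B3 (3.78).

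Of the interferon and innate immune genes, the kinase JAK2 (7.31), which acts downstream of cytokine receptors, had the strongest member, and its window held the AP-1 core. Other members lay at CXCL8 (6.29), the chemokine that attracts neutrophils, and the Toll-like receptor genes TLR1 and TLR6, which share a member (5.63). Further members lay at the RNA sensor RIGI (5.63), the antiviral genes IFIT3 (5.60) and MX1 (5.44), and the transcription factor IRF1 (5.06).

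Of the 20 members at chromatin regulators 5 covered a TSS. HDAC9 (9.09), a deacetylase, and KDM5A (8.81), an H3K4 demethylase, led, and both covered a TSS. The chromodomain remodelers CHD2 (8.0) and CHD1 (7.09) followed at 500 and 470 bp. The AP-1 core was found in 4 of the 20 windows, the CHD2 window among them. CHD2 had 3 members in all. In the list of Mediator and RNA polymerase II factors, 11 of 70 genes (15.7%) had a member, led by TAF2 (8.33), TAF13 (8.28), GTF2B (6.61) and TAF10 (6.18), of which the TAFs are subunits of TFIID and GTF2B is general factor TFIIB. The GTF2B member lay 544 bp from the TSS, and its summit sequence occurs 21 times in the genome. Splicing factors had members at 7 of 75 genes (9.33%), led by SNRPB2 (8.05), SRSF11 (7.46), TRA2B (6.20) and DHX15 (6.08), while 56.0% of that list had a shared promoter region. This SRSF11 member also covered a TSS of the neighbour LRRC40.

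Signaling pathways lay near or below the share of all genes. Notch had 7 of 47 genes (14.9%), among them the ligand JAG1 (4.78), NCSTN (6.43), a subunit of γ-secretase that cleaves the receptor, RBPJ (6.31), the DNA-binding factor of the pathway, and HEY1 (7.0), a target gene and repressor. The NCSTN member also covered a TSS of the neighbour COPA. The member at SPEN (3.88), a corepressor of RBPJ, came from library 4. Wnt had 9 of 79 genes (11.4%), with WLS (6.83), which carries Wnt ligands to the cell surface, the secreted inhibitor DKK1 (5.75), the coreceptor LRP6 (5.08) and the transcription factor TCF7L2 (5.17). TGF-beta and BMP had 5 of 64 (7.81%), led by the receptor TGFBR2 (10.2), with LTBP1 (5.79), which stores the latent ligand, TGFBR3 (5.64) and the ligand BMP6 (5.21). Receptor tyrosine kinases other than the ERBB family had 8 of 54 (14.8%), with STYK1 (5.52), EPHB6 (5.45), KIT (5.23), the stem cell factor receptor, and AATK (4.90) in front and 5 Ephrin receptors of the EPHA and EPHB type in all.

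Autophagy and lysosome genes were close to the share of all genes, with members at 10 of 69 (14.5%). The strongest were at GLA (9.51), the lysosomal α-galactosidase, the proteases ATG4A (7.88) and ATG4C (7.11), and LAMP2 (6.43), a lysosomal membrane protein. The neuronal list had members at NLGN1 (7.95), DLG2 (6.40), HOMER1 (4.74) and GRIN1 (4.0), 4 of 65 genes (6.15%), none of them over a TSS. In the p53 list TIGAR (4.95), a regulator of sugar metabolism, had the strongest member, and the receptor list had only the taste receptor TAS1R1 (3.89).

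All 5 epithelial markers with a KYSE-30 promoter peak had a member, all from library 6. ESRP1 (6.27), a splicing regulator of epithelial isoforms, and GRHL2 (5.67), a transcription factor of epithelial junction genes, had members over the TSS and no HET-1A promoter peak. KRT8 (4.91), a keratin of simple epithelia, CLDN4 (4.86), a tight junction protein, and EPCAM (3.80), an adhesion molecule, also had a HET-1A promoter peak at another position. At 2 of these genes the promoter also held a region with peaks of both KYSE-30 and HET-1A. The COL3A1 member (6.32), of a fibrillar collagen, lay 1058 bp from a TSS.

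Several genes held clusters of members. ARHGAP26, a gene with several TSSs, had the most, 4 in library 6 (4.05 to 5.0) and 1 in library 4 (4.19). ARHGDIB had 4 (3.44 to 6.22). VOPP1 had 4 as well (3.50 to 4.03), all on the raised background of chromosome 7 described next. INTS8 (up to 9.61), ZFAND1 (9.11), ENKUR (8.84), CHD2 (8.0), COMMD6 (7.89), OXR1 (7.76) and C12orf4 (7.22) had 3 each, all in library 6.

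The 15 genes with members of both libraries were named after their values were seen. As a part of the 112 library 4 genes they are near the 12.6% of all protein-coding genes with a library 6 member. At 6 of them the members lay less than 500 bp apart: 36 bp at HOXD12, a homeobox gene (4.55 in library 6 and 4.06 in library 4), 86 bp at ALG10 (8.40 and 6.32), 110 bp at EFNA5, an ephrin ligand (3.98 and 3.88), 176 bp at INPP4B, a phosphoinositide phosphatase (7.53 and 3.85), 387 bp at PCLO, a scaffold of the presynaptic zone (5.97 and 3.68), and 462 bp at DNAH11, a dynein of motile cilia (8.01 and 4.64). At MUC20, FOXB1, GAPDH and ARHGAP27 they lay 703 to 5324 bp apart, and at BRSK2, SGK1, MAP4K3, ARHGAP26 and AGAP1 at separate TSSs between 48789 and 378575 bp apart.

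A small set of members stood on a raised local background. The relative background, which sets the local background at a peak against the lowest of the same library, was at least 4 at 32 members, 24 of library 6 (0.777%) and 8 of library 4 (4.62%). Of the 32, 20 lay on chromosome 7 between 54.7 and 56.9 Mb, 13 of library 6 and 7 of library 4. There the relative background of members ranged from 7.10 to 15.2 in library 6 and from 4.22 to 14.7 in library 4, while their fold enrichments were low, 2.37 to 4.8 and 1.96 to 3.55. Over all called peaks in this stretch the median relative background was 10.6 in library 6 (52 peaks) and 8.96 in library 4 (33 peaks), against 1.00 in HET-1A library 2 (14 peaks). Named protein-coding genes with such a member include VOPP1, ZNF713, a zinc finger gene, NIPSNAP2, a mitochondrial protein, and SUMF2. Both KYSE-30 libraries showed the raised background, and DNA copy number was not tested.

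Along the genome the member share of library 6 promoter peaks was uneven. It was highest on chromosomes X (75.4%, interval 67.1 to 82.2) and 4 (70.6%, 64.9 to 75.7) and lowest on chromosomes 16 (25.4%, 19.9 to 31.8), 22 (29.8%) and 17 (30.7%). These chromosomes also differed in how many promoter peaks HET-1A library 2 had for each of library 6: library 6 had 1.51 promoter peaks on chromosome 4 for each in HET-1A library 2, 1.22 on chromosome X, and 0.381, 0.257 and 0.384 on chromosomes 16, 22 and 17. On these chromosomes the member share was higher where library 6 had more promoter peaks than HET-1A library 2. The order was not strict, since chromosome X had the highest share and chromosome 4 the highest ratio. The 2 values are also not independent, because the rule leaves out regions with a HET-1A peak. The part of copy number, base composition and list length in the uneven member share was not tested. Library 4 had members on every autosome except chromosome 18, with the most on chromosome 17 (21).

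Members without a protein-coding TSS were most often at long non-coding RNA genes. The strongest were at ENSG00000287138 (11.0), CLDN10-AS1 (10.8), PRKG2-AS1 (10.7), LINC02394 (10.4) and ZFPM2-AS1 (10.1), all in library 6. All of these but PRKG2-AS1 held the AP-1 core in their windows. The members that came next in library 6, at GUSBP1, DPYD-AS1 and LINC02869, did not hold it. A miRNA gene lay within 3 kb of 74 members (2.27%), 69 of library 6 and 5 of library 4. The share was 2.33% at promoters shared with HET-1A and 2.98% at HET-1A-only promoters, so it was not particular to the members. Among these genes was MIRLET7I, of the let-7 family of growth-restraining miRNAs, with members of 5.77 in library 6 and 4.26 in library 4 at separate positions.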

How the data were processed

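ATAC-seq peak lists of 6 libraries from 3 cell lines were used. According to the methods and the submitters' processing notes, the authors trimmed the reads, marked duplicates (Picard 2.2.1), mapped to hg19 (Bowtie2 2.3.3.1), filtered blacklisted regions (bedtools 2.7.1), corrected positions for the Tn5 offset, restricted the data to fragments below 100 bp and ran MACS2 (q-value 0.05, reads extended to 200 bp) on each library alone. The deposited lists give a score, which is the q-value scaled to whole numbers, and the fold enrichment, a ratio to the local background. The authors' −log10 p-value and −log10 q-value are those of MACS2. Only called peaks are listed, so signal outside peaks was not measured.

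The fold enrichment and p-value together gave the tags and local background of each peak, as the whole number of tags that returned the −log10 p within 0.001, for 99.6 to 100% of peaks; this and the member rule were tested on simulated data. TSSs were those of GENCODE 44 lifted to hg19, and chromosome names and lengths matched the files. GC, CpG, motifs and the number of exact copies of the central 32 bp were read from the hg19 genome in 200-bp summit windows, and at protein-coding TSSs in windows centred on the TSS. Shares have Wilson 95% intervals. A gene counted when any of its protein-coding TSSs lay within 3 kb of a member. Of the listed symbols, PECAM1 was not found. An additional list and some listed genes are not reported here. Genes named were the 10 members of highest fold enrichment at protein-coding genes per library, up to 4 genes per list by fold enrichment, 10 genes with the most members, and the members nearest a threshold; the 15 genes of both libraries, and other genes named beside these, were chosen after their values were seen. The members and lists were chosen with earlier results of these data known. The alternatives were stricter q-values, equal list lengths, an overlap of 50% of each peak or more, a promoter of 1 kb, protein-coding TSSs only, merging within 200 bp, a search of the whole region for AP-1, and each library left out. The software was Python 3.11.15 with pysam 0.24.0, scipy 1.17.1, pandas 2.3.3, numpy 2.4.6 and, for figures, matplotlib 3.10.9.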

Additional observations from a re-analysis of the deposited data

How the results depend on the processing

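The number of members, 3260, and of their genes, 2635, stayed within 1.5 times under 8 of the alternatives that leave out no library and fell to 996 members and 966 genes when KYSE-30 library 6 and HET-1A library 2 were cut to their 1255 peaks of smallest p-value, the length of the KYSE-30 library 4 list. Leaving out each library in turn gave 291 to 5997 members and 222 to 5269 genes, the lowest without KYSE-30 library 6 and the highest without HET-1A library 2, so these 2 libraries set both counts. The promoter share of 44.7% was 58.6% with equal lists, 48.8% with an overlap of 50% of each peak or more, 35.9% with a promoter of 1 kb, 34.5% with protein-coding TSSs only and 43% without regions that have a peak of another line within 3 kb, an alternative added after the data were seen, and 44.7 to 53% with a library left out. The share of members with the AP-1 core, 14.8%, was 10.1% with equal lists, 13.1% with the larger overlap, 11.1% with a promoter of 1 kb, 12% with protein-coding TSSs only, 17.2% when the whole region was searched, and 6.87 to 15.1% with a library left out. The cause of these shifts was not tested beyond what each setting changes by construction. Stricter q-values, merging within 200 bp and, added after the data were seen, only members with a summit sequence found once in the genome moved none of the 4 results beyond these limits. No paired analysis was possible because the library numbers are not shared between lines and no test was run.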
